A study of Homo sapiens with 9 samples.

Results

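The Schlafen gene cluster of chromosome 17 holds 6 protein-coding genes, SLFN5, SLFN11, SLFN12, SLFN13, SLFN12L and SLFN14, whose outermost starts span 318 kb from position 33570090 to position 33887838 of hg19. Every H3K4me3 peak within 5 kb of any annotated start of these genes was collected, which gave 42 of the 99358 listed peaks and, after peaks sharing at least 1 bp were merged, 12 of 30404 regions. The cluster was chosen by a result of these data: SLFN14 was among the strongest control regions that had no peak in any knockout. The SLFN14 values are therefore a description and carry no test, and the tests below are on the 8 regions of the other 5 genes.

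CUT&RUN, in which a nuclease tethered by an antibody cuts out the chromatin that carries a mark for sequencing, was used to map H3K4me3, found at the promoters of active genes. All 9 libraries came from HEL cells, an established human erythroleukemia line that was transduced by lentivirus with Cas9 and guide RNAs. The groups were NTC, with a non-targeting guide (3 libraries), and knockouts (KO) of METTL3, METTL14 and WTAP (2 libraries each), whose products are subunits of the enzyme complex that writes m6A on mRNA. The study lists its guides, but which of them and which time of harvest belong to these libraries, and whether replicates were separate cultures, was not settled here, so that p-values measure only the spread between libraries, which may be technical, and H3K4me3 at a targeted gene is no check of its knockout. Of the markers listed, the erythroid genes GATA1, TAL1, KLF1 and EPOR and 3 of 5 megakaryocytic genes had a peak in all NTC libraries, while HBG1 and PF4 had none. Of markers of other cell types, CD8A, PAX5 and LYZ also had a peak in all NTC libraries, whereas CD3D, MS4A1, CD14 and ALB had none.

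Schlafen proteins share a nucleic acid binding core, and several of them cut or bind tRNA or ribosomal RNA. Many Schlafen genes are induced by interferon, and the human family lies in the same cluster, made by gene duplication. SLFN14 is a ribosome-associated endoribonuclease best known in platelets and red cells, SLFN11 blocks stalled replication forks and sensitises cells to DNA damage, SLFN12 is the RNase that becomes active when bound to the phosphodiesterase PDE3A, SLFN13 cleaves tRNA, and SLFN5 is a nuclear protein that acts on transcription.

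Promoter sequences were taken from RefSeq (table of build GRCh38.p14) for the 3 members found there, SLFN11, SLFN12 and SLFN12L, and were matched to hg19. They are shown because the 3 genes differ in what the peaks did around them: the SLFN12 stretch was overlapped by a peak in 3 NTC and 2 KO libraries, the SLFN11 stretch in 0 NTC and 2 KO libraries, and the SLFN12L stretch in no library. Each runs 5′ to 3′ on the minus strand, is the part of the 250 bases before the RefSeq start that lies outside annotated exons, and has its CpG dinucleotides in capitals.
SLFN11 chr17:33700721-33700890: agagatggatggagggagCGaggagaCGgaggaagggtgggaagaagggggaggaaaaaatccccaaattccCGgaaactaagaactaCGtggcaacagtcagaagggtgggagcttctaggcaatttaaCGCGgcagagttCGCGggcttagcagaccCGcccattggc
SLFN12 chr17:33760303-33760443: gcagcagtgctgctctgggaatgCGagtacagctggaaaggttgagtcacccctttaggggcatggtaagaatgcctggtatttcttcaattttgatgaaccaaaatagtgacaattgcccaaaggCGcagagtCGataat
SLFN12L chr17:33864698-33864947: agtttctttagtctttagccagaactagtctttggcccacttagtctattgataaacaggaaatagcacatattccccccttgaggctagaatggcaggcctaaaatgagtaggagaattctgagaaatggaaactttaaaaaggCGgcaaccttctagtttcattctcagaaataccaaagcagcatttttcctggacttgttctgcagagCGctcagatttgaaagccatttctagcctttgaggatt

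CpG content differed widely between the starts, which is given as a description. In the 1001 bp centred on the outermost start, SLFN5 and SLFN13 held 58 CpG each, SLFN11 held 50 and SLFN12 held 28, against a median of 59 for 1189 protein-coding genes of the chromosome. The SLFN14 window held 9 CpG, and only 5.21% of those genes had fewer. The outermost SLFN12L start held 2, whereas an inner SLFN12L start at position 33814876 held 62. No KO library had a peak over the outermost starts of SLFN14 and SLFN12L, the poorest in CpG, or over the CpG-rich inner SLFN12L start. SLFN14 was chosen for having no KO peak, and the outermost SLFN12L start had no NTC peak either. A link between CpG content and KO peaks was not tested. In the 300-base RefSeq windows (250 bases before the start and 50 after), the interferon response element core GAAANNGAA was found once in SLFN12L and in neither SLFN11 nor SLFN12, on a background of 8.11% of 35116 promoters. The ETS motif CCGGAAGT was found once in SLFN12, outside the stretch printed above, on a background of 4.14%. The letters AGATAA, a form of the site of the erythroid factor GATA1 (10.3% of promoters), and CCACNCCC, a site of KLF factors (17.2%), were found in none of the 3 windows on either strand. Other forms of these sites were not searched, and a match or its lack says nothing about binding.

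In NTC cells the mark lay over 2 strong promoters, SLFN14 and SLFN12, and weakly at the inner start of SLFN12L. In KO cells SLFN14 had no peak, SLFN12 kept a smaller one in all 6 libraries, and peaks were listed over SLFN5 in all 6 libraries, around SLFN11 in the METTL14-KO and WTAP-KO libraries and over SLFN13 in 3 libraries, none of which had a peak in NTC. The cluster had 4, 5 and 5 peaks in NTC, 4 and 4 in METTL3-KO, 8 and 3 in METTL14-KO and 4 and 5 in WTAP-KO, and the KO mean was 100% of the NTC mean. Over all peaks of the lists the KO mean was 25.9% of the NTC mean. METTL14-KO replicate 1, with 8 peaks, accounted for the highest number, and without it the KO mean was 85.7% of NTC. These numbers include SLFN14, which was chosen for having peaks in NTC alone. With SLFN14 left out, every NTC library had 2 peaks in the cluster, the KO libraries kept their 3 to 8, and the KO mean was 233% of NTC.

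**Figure D1:**
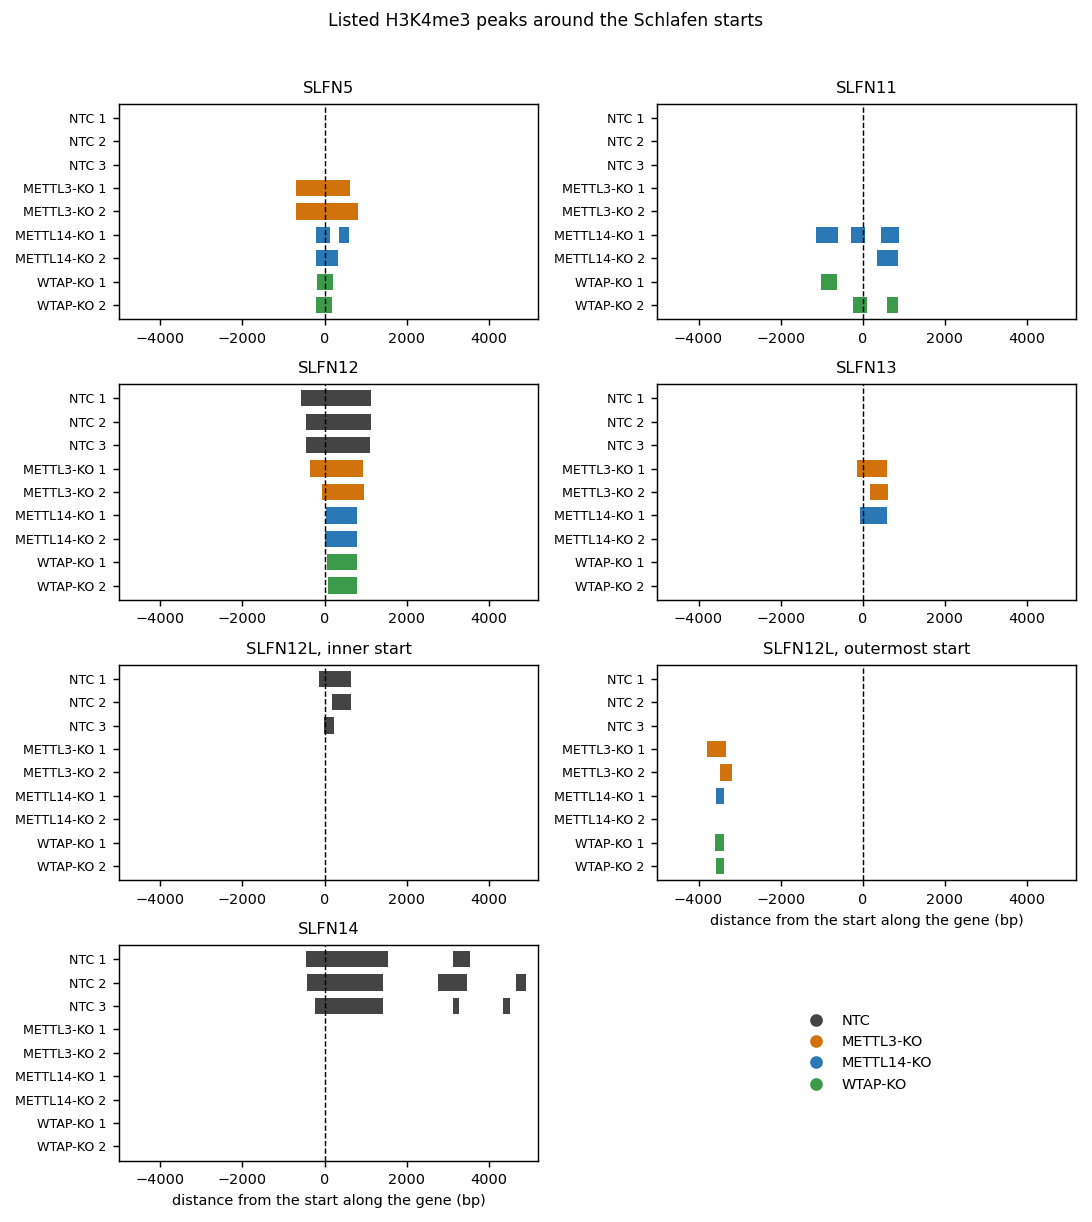
Each bar is 1 listed peak, placed by its distance in bp from the start along the gene (horizontal axis, upstream to the left, dashed line at the start), with a row for each of the 9 libraries. SLFN14 and the inner SLFN12L start have NTC bars only, SLFN5, SLFN11, SLFN13 and the site 3182 bp upstream of SLFN12L have KO bars only, and SLFN12 has a bar in all 9 rows.

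The value of a peak is its signal, read here as spike-in-calibrated coverage summed over the peak, which the lists themselves do not state. The cluster's summed signal was 47502, 49569 and 56588 in NTC, 23016 and 9582 in METTL3-KO, 11917 and 5106 in METTL14-KO, and 5207 and 6382 in WTAP-KO. The KO mean was 19.9% of the NTC mean, a description that rests in part on the choice of SLFN14. SLFN14 supplied 51.8% to 52.7% of the NTC sum and SLFN12 45.9% to 46.7%. With SLFN14 left out, the NTC sums were 22907, 23798 and 26747 and the KO sums stayed the same, so that METTL3-KO replicate 1 lay above NTC replicate 1. The KO mean was then 41.7% of NTC, with 66.6% in METTL3-KO, 34.8% in METTL14-KO and 23.7% in WTAP-KO. The unit of the signals also differed between the groups. This unit, called the step, is the largest value of which a library's signals are whole multiples. It was 1.14 to 1.32 in NTC, 0.461 and 1.07 in METTL3-KO, and 0.320 to 0.440 in METTL14-KO and WTAP-KO. The lists do not say what 1 step stands for. With signals divided by the step the KO mean was 53.0% of NTC with SLFN14 and 111% without it. METTL3-KO replicate 1 weighed most in these KO means. In steps it had 22622 at SLFN12 and 17712 at SLFN5. The other KO libraries had 4105 to 7911 at SLFN12 and 2954 to 6010 at SLFN5.

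**Figure D2:**
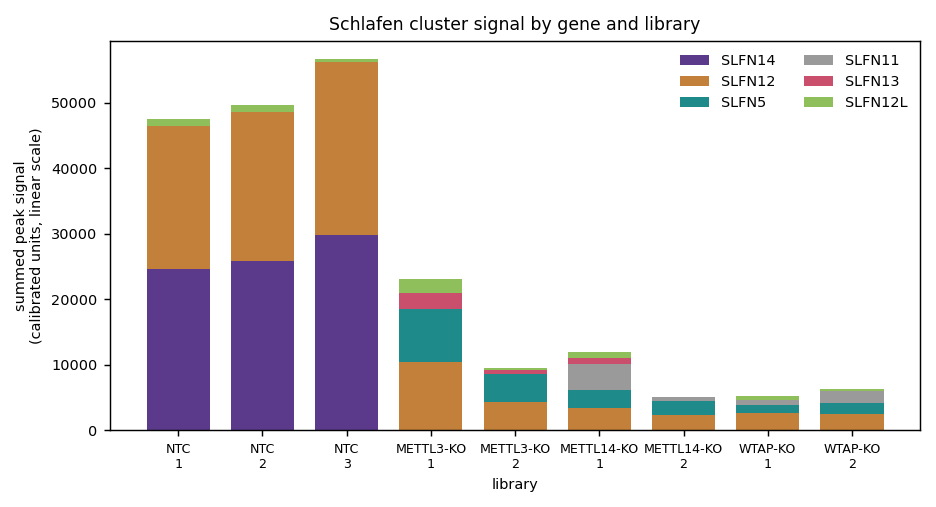
Bars show the summed peak signal of the cluster in each library (calibrated units, linear scale), stacked by gene. NTC bars reach 47502 to 56588 and consist almost wholly of SLFN14 and SLFN12, while KO bars reach 5106 to 23016 and hold SLFN5 but no SLFN14.

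SLFN14 had the strongest region of the cluster, at chr17:33886288-33888279, over its outer start and the first 1551 bp of the gene. Its signal was 24216, 24582 and 29048 in the NTC libraries (25949 ± 2690, SD, n = 3), and no KO library listed a peak there. In such bulk libraries, fewer cells with the mark and less mark per cell cannot be told apart. By NTC signal this region had rank 85 among the 16226 regions called in all NTC libraries. Of those regions, 71.0% had no peak in any KO library, and the choice of SLFN14 used that contrast. Among the strongest 1% of them, 163 regions, 3 had no KO peak (1.84%) and 112 had a peak in all 6 KO libraries (68.7%).

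Ranked by NTC signal among the regions without a KO peak, SLFN14 had rank 2. The region above it, at chr3:36965066-36967053, had 28506 ± 2150 and no coding start within 5 kb. The next below were a region by ITSN2, an adaptor protein of endocytosis (24232 ± 1868), a region by TMEM156 (21570 ± 1993) and the region chr6:137058209-137059933, with no coding start within 5 kb (20752 ± 5342). The next in the ranking, chr15:101498510-101500260, had 20132 ± 4591 (SD, n = 3 each), and the rule for choosing SLFN14 names no number of regions. ITSN2 and TMEM156 were also the coding genes whose values over the 9 libraries were most like those of SLFN14, at a Euclidean distance of 0.18 and 0.47 on the log2(signal + 30.1) scale, followed by RERE (0.89), CCNI (0.96) and SMARCA2 (0.96). Unlike the SLFN14 region, those of ITSN2 and TMEM156 did not overlap a start of the gene and lay 4512 and 766 bp from the nearest.

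3 further SLFN14 regions were weak and listed only in NTC. The one at chr17:33884306-33885084, 33 bp downstream of the inner start and with 776 of its 779 bp in coding exon, had signals of 379, 825 and 480. The other two lay 1935 and 1627 bp downstream of the inner start, and each was listed in 1 library, with 364 in NTC replicate 2 and 314 in NTC replicate 3. Nearly all of the SLFN14 signal was thus at the outer start.

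SLFN12 was the only member with a peak in all 9 libraries. Its region, chr17:33759162-33760879, overlapped 6 annotated starts and had rank 123 of the 16226 NTC regions. The signal was 21823, 22805 and 26407 in NTC (23678 ± 2413, SD, n = 3), 10420 and 4384 in METTL3-KO, 3481 and 2354 in METTL14-KO, and 2606 and 2458 in WTAP-KO. Every KO library lay below every NTC library, and the KO means were 31.3%, 12.3% and 10.7% of NTC for METTL3, METTL14 and WTAP.

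The SLFN12 region was lower in all KO groups against NTC by limma, with a log2 change of -2.68 ± 0.32 (SE) and an adjusted p of 0.000225, but the direction turned to 0.34 (adjusted p = 0.204) when the median of the 511 regions with a peak in all 9 libraries was set to the same level in each library, here called centring, which moved every log2 change of this contrast up by 3.02. With signals divided by the step the change was -1.29 (adjusted p = 0.0622). The single groups gave -1.80 (adjusted p = 0.00664), -3.03 (adjusted p = 0.0005) and -3.21 (adjusted p = 0.000365) for METTL3, METTL14 and WTAP on the limma fit, and the first of these was lost without METTL3-KO replicate 2 (adjusted p = 0.0685). Against those 511 shared regions SLFN12 was not unusual in its level, at 18.1% of NTC in KO beside a median of 15.1%.

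The SLFN12 peaks were nested. In NTC they were 1564 to 1710 bp wide (1621 ± 78, SD, n = 3), in METTL3-KO 1014 and 1313 bp, and in METTL14-KO and WTAP-KO 720 to 798 bp. NTC peaks began between 33759162 and 33759186, METTL3-KO peaks between 33759344 and 33759357, and the METTL14-KO and WTAP-KO peaks all at 33759504 or 33759505. At the other end, towards the promoter, the NTC and METTL3-KO peaks ran past the outermost start at 33760302, and the METTL14-KO and WTAP-KO peaks ended 1 to 79 bp short of it, inside the gene. The ratio of NTC to KO width was 1.83, below the median of 2.61 over the shared regions, and no test was made of that difference.

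The genes most like SLFN12 over the 9 libraries, on the same scale, were SAP18, a subunit of splicing and deacetylase complexes (distance 0.50), ZNF227 (0.55), DEDD2 and ZNF526, which share a region (0.63), and PNRC1 (0.77). Each had a peak in all 9 libraries. At SAP18, for example, the NTC mean was 21625 ± 4052 (SD, n = 3) and KO signals ran from 2475 to 10508.

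SLFN5 had the opposite pattern to SLFN14, with no NTC peak and a peak in every KO library. Its region, chr17:33569390-33570911, covers all annotated starts of the gene and overlaps the lncRNA genes ENSG00000266947 and ENSG00000289211. The signal was 8158 and 4207 in METTL3-KO, 2644 and 2103 in METTL14-KO, and 1202 and 1734 in WTAP-KO. All 6 lay far above the smallest region signal of 30.1, and the nearest NTC peak was 69863 bp from the start. The adjusted p for all KO groups against NTC was 8.9e-07. The SLFN5 region, like those of SLFN11 and SLFN13 and the one upstream of SLFN12L, was at 0 in all NTC libraries and entered the fit only through KO libraries, so that its p against NTC is given as a description and is no support for the difference. No fold is given because NTC was at 0.

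A peak over SLFN5 that only KO libraries list has many counterparts: of 1472 regions called in all 6 KO libraries, 51.4% had no NTC peak. All lists hold only peaks of 150 to 2000 bp. Among regions with a single peak in both METTL3-KO libraries, the share without any NTC peak rose with the METTL3-KO width, from 29.4% at 150 to 400 bp to 77.9% at 1300 to 1600 bp and 96.8% above 1600 bp. The SLFN5 peaks averaged 1416.5 bp in METTL3-KO (1312 and 1521 bp), in the class of 77.9%. The part of this width limit in the missing NTC peaks of SLFN5 was not tested. The KO peaks of SLFN13 and of the site upstream of SLFN12L were narrow, 575.5 and 386 bp on average in METTL3-KO, in classes where 35.1% and 29.4% had no NTC peak.

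**Figure D3:**
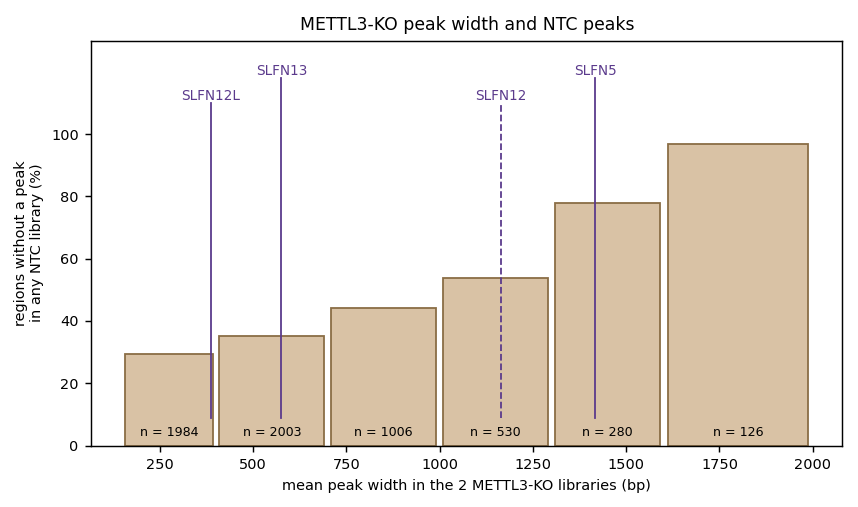
Bars show, for regions with 1 peak in both METTL3-KO libraries, the share in percent that had no peak in any NTC library, by mean METTL3-KO peak width in bp, with the number of regions in each bar. Vertical lines mark 4 Schlafen regions, solid where NTC had no peak and dashed for SLFN12, and SLFN5 falls in the second widest class, where 77.9% had no NTC peak.

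SLFN5 was also the only member region that differed between KO groups by limma: METTL3-KO was above METTL14-KO and WTAP-KO by 1.65 ± 0.35 (SE) on the log2 scale (adjusted p = 0.0227), with both METTL3-KO libraries above the other 4. METTL3-KO peaks spanned 1522 bp, METTL14-KO peaks 803 bp in 3 pieces over its 2 libraries and WTAP-KO peaks 397 bp. The call was lost with signals divided by the step (0.83, adjusted p = 0.945) and with centring (0.18, adjusted p = 0.686). It was also lost without WTAP-KO replicate 1 (adjusted p = 0.0575) and without NTC replicate 1, 2 or 3 (adjusted p = 0.0775, 0.0790 and 0.0752).

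SLFN11 was marked in METTL14-KO and WTAP-KO libraries and in no METTL3-KO or NTC library. The peaks fell into 3 regions around its outermost start. The region over the start, chr17:33700618-33701000, had a signal of 1484 in METTL14-KO replicate 1 and 1325 in WTAP-KO replicate 2. The region 616 bp upstream, chr17:33701336-33701850, had 1327 in METTL14-KO replicate 1 and 772 in WTAP-KO replicate 1. The region 259 bp downstream, chr17:33699838-33700367, lies in the gene and had 1268 and 649 in METTL14-KO and 430 in WTAP-KO replicate 2. Every METTL14-KO and WTAP-KO library thus had a peak at SLFN11, but not at the same place.

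For all KO groups against NTC, the adjusted p was 0.30 over the SLFN11 start, 0.302 upstream and 0.0364 downstream. The downstream call was lost without METTL14-KO replicate 1 or 2 (adjusted p = 0.0775 and 0.0562), METTL3-KO replicate 1 or 2 (0.0690 and 0.0690) or NTC replicate 1, 2 or 3 (0.0888, 0.0879 and 0.0901). The difference between METTL3-KO and the other KO groups there had an adjusted p of 0.0754, so the lack of METTL3-KO peaks at SLFN11 did not pass the test. With peaks within 1 kb merged, the SLFN11 peaks formed a single region, and both comparisons passed, with adjusted p of 0.00079 and 0.00217. All SLFN11 regions were at 0 in NTC and METTL3-KO and entered the fit only through METTL14-KO and WTAP-KO libraries. Their p, merged or not, are thus a description and no support for either difference.

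SLFN13 was marked over its starts at chr17:33775252-33775992 in METTL3-KO, with 2367 and 693, and in METTL14-KO replicate 1, with 872. The other KO libraries and NTC had no peak. For METTL3-KO against NTC the adjusted p was 0.00942, and it was 0.0662 without METTL3-KO replicate 1. For all KO groups it was 0.0503, and it fell to 0.00995 and 0.000517 without METTL14-KO replicate 1 and 2. METTL3-KO against the other KO groups had an adjusted p of 0.0893.

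SLFN12L differed at 2 sites, and no library had a peak over its CpG-poor outermost start at 33864697. The region over the inner start, at chr17:33814229-33815014, had NTC signals of 1084, 993 and 340 (806 ± 406, SD, n = 3). The NTC replicate 2 peak ended 172 bp short of that start. No KO library had a peak in this region, and the adjusted p by limma was 2.3e-05 for all KO groups. This region entered the fit only through the NTC libraries, so that this p is a description too. At chr17:33867879-33868494, 3182 bp upstream of the outermost start and between SLFN12L and SLFN14, NTC had no peak and the KO signals were 2070 and 299 in METTL3-KO, 841 in METTL14-KO replicate 1, and 627 and 435 in WTAP-KO. The adjusted p was 0.0189 for all KO groups, for a region that entered the fit only through KO libraries, and it was 0.0541, 0.0534 and 0.0550 without NTC replicate 1, 2 and 3. The region over the inner start was weak in NTC, with rank 13759 of 16226.

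**Figure D4:**
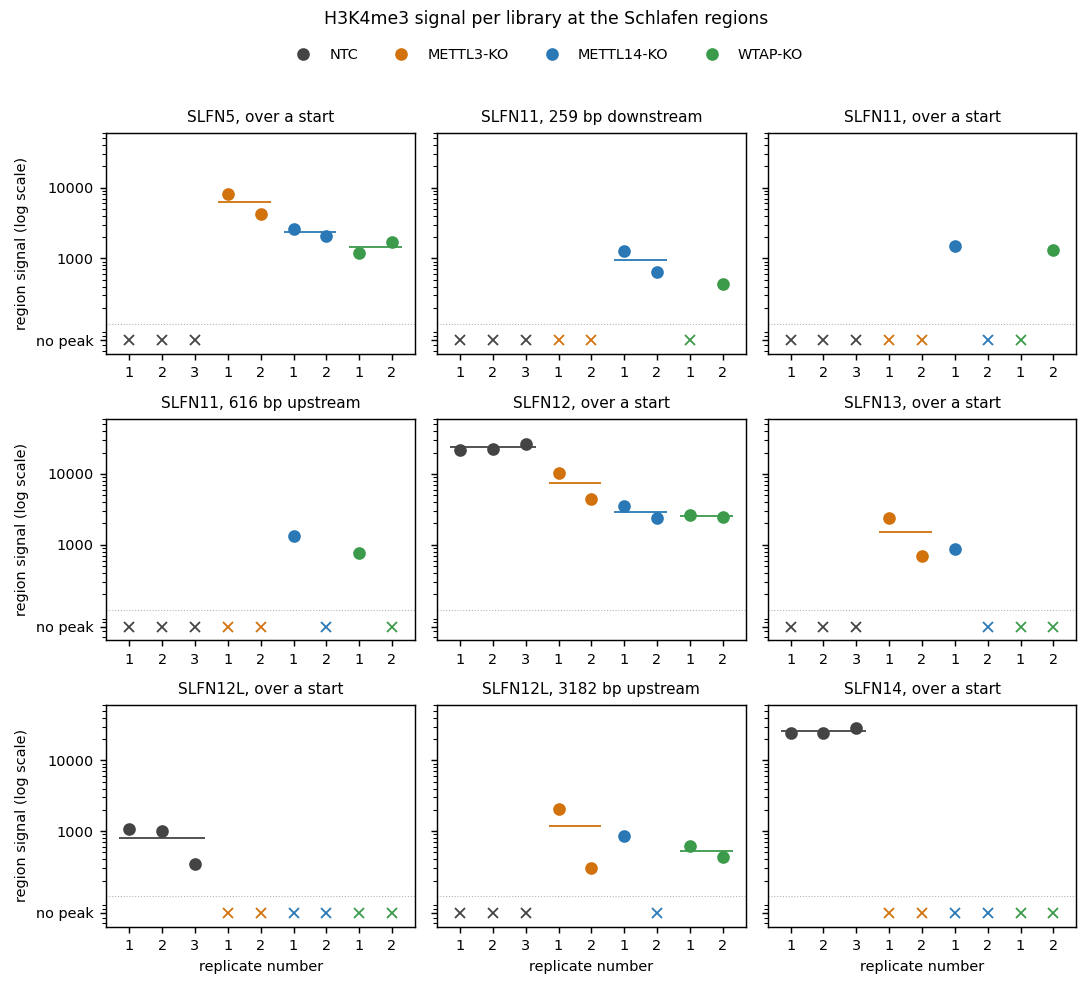
Points show the region signal of each library on a log axis for the 8 tested regions and the main SLFN14 region, with crosses in a row of their own where no peak was listed and a line at the mean of groups in which every library had a peak. SLFN14 goes from between 24216 and 29048 in NTC to no peak in KO, SLFN12 from between 21823 and 26407 to between 2354 and 10420, and SLFN5 from no peak to between 1202 and 8158.

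Counted over the 8 tested regions, 2 were lower and 3 higher in all KO groups, where 76.7% of all 24547 tested regions were lower and 12.2% higher. For METTL3-KO the counts were 2 lower and 3 higher, on backgrounds of 62.4% and 11.2%. For METTL14-KO they were 2 and 2, on 65.3% and 5.50%, and for WTAP-KO 2 and 2, on 65.5% and 5.50%. Between METTL3-KO and the other KO groups, 0 regions were lower and 1 higher, on backgrounds of 0.668% and 14.7%. Of the 8 regions SLFN12 alone had signal in NTC and KO, and the other 7 passed the filter only through the groups that listed them, so these counts are a description. The 3 SLFN11 regions lie side by side, so these 8 regions are not independent, and the comparisons with NTC share the same control libraries.

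Just outside the 5 kb window, 6677 bp from the outer SLFN14 start, lay the region of the lncRNA gene SNHG30 at chr17:33894515-33895838. It had a peak in all 9 libraries, with 11322 ± 1863 in NTC (SD, n = 3) and 788 to 4381 in KO, a mean of 16.0% of NTC (log2 change -2.88 ± 0.31 SE, adjusted p = 0.000117), but with centring the change was 0.14 (adjusted p = 0.632). It was the nearest listed peak to the SLFN14 start in every KO library. A region at chr17:33673244-33673959, beyond the 3′ end of SLFN11 and 6191 bp from an inner SLFN11 start, was listed in NTC only, with 1356, 2403 and 3485.

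Of 26 other protein-coding genes with a start within 500 kb of the cluster, 16 had a region within 5 kb, and these were 11 distinct regions because neighbours share them. Of the 10 tested, 6 were lower and 2 higher in all KO groups, where 76.7% of all tested regions were lower and 12.2% higher, with a median log2 change of -4.18 beside -4.95 over all tested regions. The region of LIG3, a DNA ligase, and CCT6B fell from 17895 ± 3546 in NTC to 305 ± 507 in KO (adjusted p = 3.2e-07). Its KO peaks lay in the 2 METTL3-KO libraries alone. The region of AP2B1, an adaptor of clathrin-mediated endocytosis, on the far side of SLFN14, was listed in all 6 KO libraries at 1116 to 8043 and in no NTC library (adjusted p = 6.2e-07), and that of TAF15, a TFIID-associated RNA-binding protein, in 5 KO libraries only (adjusted p = 0.000717). These are the 2 regions counted as higher. Both were at 0 in NTC and entered the fit only through KO libraries, so that their p are a description and no support for the difference. Lower regions without a KO peak likewise entered only through NTC libraries. RFFL and ZNF830 had a peak in all 6 KO libraries and in 1 NTC library and did not pass the test (adjusted p = 0.360 and 0.260). RFFL had 8171 ± 14153 in NTC and 408 to 7313 in KO. ZNF830 had 3660 ± 6338 in NTC (SD, n = 3 each) and 533 to 3260 in KO. Each NTC mean came from 1 library alone, whose signal lay above that of every KO library. The region near C17orf50 and the metalloproteinase gene MMP28 had 4404 ± 1876 in NTC and peaks in 2 KO libraries of at most 306 (adjusted p = 2.4e-06).

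Because Schlafen genes are known for induction by interferon, 25 other interferon-regulated genes were read in the same way. Of the 22 with a region, 17 were lower and 2 higher in all KO groups, where 76.7% of all tested regions were lower and 12.2% higher. Their median log2 change was -6.66, beside -4.95 over all tested regions and -5.65 over the strongest region of each protein-coding gene. IFI6, an interferon-induced membrane protein, had 12798 ± 1476 in NTC and peaks in 4 KO libraries of at most 1474 (adjusted p = 0.00372). EIF2AK2, the double-stranded RNA kinase, fell from 10841 ± 1620 to 211 ± 328 (adjusted p = 6.1e-08), and ADAR, the RNA editing enzyme, from 10552 ± 2871 to 28 ± 68 (adjusted p = 1.5e-05). The KO peaks of EIF2AK2 lay in the 2 METTL3-KO libraries alone, and that of ADAR in 1 METTL3-KO library. ISG15, the ubiquitin-like modifier, was listed in all 6 KO libraries at 952 to 4876 and in 2 NTC libraries. Its NTC mean was 12406 ± 10745, and it did not pass the test (adjusted p = 0.903). PARP14, an ADP-ribosyltransferase, was listed in all 6 KO libraries at 1800 to 13236 and in no NTC library (adjusted p = 4.5e-06), and its neighbour on chromosome 3, PARP9, in 4 KO libraries only (adjusted p = 1.4e-05). These are the 2 regions counted as higher. Both were at 0 in NTC and entered the fit only through KO libraries, so that their p are a description and no support for the difference. Lower regions without a KO peak likewise entered only through NTC libraries. PARP14 was the 1 gene of the 22 that had, like SLFN5, a peak in all 6 KO libraries and none in NTC.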

How the data were processed

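The authors sequenced paired ends, aligned them with Bowtie to hg19 and to the yeast genome (sacCer3) of a spike-in, calibrated by the spike-in, removed duplicates with Picard and called peaks in each library. The peaks of each library were deposited as a list with positions and a signal, read here as calibrated coverage, and depth is unknown. The first base of a peak was taken as 0-based, which is assumed, and positions are printed 1-based. Annotation was GENCODE v44 lifted to hg19.

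The members, gene lists and tests were chosen with earlier results of these data known. Peaks sharing at least 1 bp were merged, and the signals of a region were summed per library. The unit is no count, so limma 3.58.1 (R 4.3.3, trend option) was run on log2(signal + 30.1), the smallest region signal, with 4 groups in 1 model on the 24547 regions that 2 or more libraries listed. Benjamini-Hochberg adjustment was over all of them at 0.05. On this scale the changes of weak regions come out too small. The step of a library is the largest value of which its signals are whole multiples (tolerance 0.05), and the lowest value was 24 to 28 steps in NTC and 30 to 94 in KO. Named genes were all members, the list genes with a peak in at least 4 KO libraries or among the 4 of highest NTC signal, the genes nearest in value to SLFN14 and SLFN12, and the neighbours of SLFN14 in rank, and a few genes of the lists are not reported here by name. Alternatives were centring, division by the step, pseudocounts 0.1 and 10 times as large, the highest peak, filters on regions, no trend, the groups in the fit, merging within 1 kb, windows of 1 and 10 kb, the replicate block and leaving out each library. The count of regions called higher, the cluster without SLFN14 and the scalings of SNHG30 were added after seeing the data. Over all tested regions, same-numbered libraries did not deviate together (correlations -0.07 to 0.04, replicates 1 and 2). Many regions had no peak in 1 of the compared groups, so this check cannot exclude a pairing, and the main fit held none. Tables and plots used Python 3.11.15, pandas 2.3.3, numpy 2.4.6 and matplotlib 3.10.9.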

Additional observations from a re-analysis of the deposited data

Results flagged for a closer look

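The region over SLFN5 stood out because the KO groups differed there from each other: METTL3-KO was above METTL14-KO and WTAP-KO by 1.65 on the log2 scale by limma (adjusted p = 0.0227), with both METTL3-KO libraries above the other 4 KO libraries. The step of the signals also differed, at 0.461 and 1.07 in METTL3-KO beside 0.320 to 0.440 in the other KO libraries. With signals divided by the step, the difference between KO groups was 0.83 (adjusted p = 0.945).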

How the results depend on the processing

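Centring on the 511 shared regions turned SLFN12 to 0.34, 0.24, 0.20 and 0.60 (all KO, METTL3, METTL14 and WTAP) and METTL3-KO against the other KO groups to -0.15. It shifted all regions by 3.02 for all KO groups. The count of the 8 regions lower went from 2 to 1, 1, 0 and 0 in those 4 contrasts, and that of regions higher to 6, 6 and 6 in all KO, METTL14 and WTAP, since centring adds the same amount to every region of a library. In WTAP-KO the 6 include SLFN13, which had no peak in WTAP-KO or NTC and was moved up by the shift of 3.80 alone. Division by the step gave 1 region lower in each of the 4 contrasts, 0 different between KO groups, and a KO signal of 53.0% of NTC. With SLFN14 left out, an alternative chosen after seeing the data, KO had 233% of the NTC peaks (200% to 250% without each library in turn) and 41.7% of the NTC signal (31.2% to 45.8%), or 111% divided by the step. No range without each library in turn is given for the 111%, in which METTL3-KO replicate 1 weighed most. Centring turned SNHG30 to 0.14. The 10-fold pseudocount gave 1 region higher in WTAP-KO, and merging within 1 kb gave 2 different between KO groups. Without each library in turn, regions higher ranged from 1 to 3 (all KO), 1 to 3 (METTL3), 2 to 6 (METTL14) and 1 to 2 (WTAP), regions lower in METTL3-KO from 1 to 2, and regions different between KO groups from 0 to 2. Apart from centring, the cause of these moves was not tested. With the replicate block, 1 region was higher in WTAP-KO and 0 differed between KO groups, where SLFN5 had an adjusted p of 0.0927, and the SLFN11 downstream region had 0.130 in all KO groups. SLFN5 and SLFN12 against NTC and the inner SLFN12L start kept their calls under the block, and, counted by gene, 10 neighbouring genes (10 without it) and 16 interferon genes (17 without it) were lower. The number of libraries limits precision, and depth is unknown.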
